A study of Mus musculus with 23 samples.

Results

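Captured methylated DNA in the hearts of mice fed a high fibre diet was set against that of mice given acetate. The data were read counts over 41388 windows of 3 kb at gene start sites, in 7 of the 23 libraries of the study: every heart library of the 2 diets, 4 on high fibre and 3 on acetate. Windows were not chosen by value, and 33562 had enough reads to be tested. The 4 heart libraries of the control diet are given as a further level. They take part in the choice of tested windows, the scaling factors and the estimate of spread, but not in the means compared.

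The mice were male C57Bl/6 housed one to a cage, and the tissue was the left ventricle. The high fibre group ate a diet rich in resistant starch, a carbohydrate that escapes digestion in the small intestine. The acetate group drank water with 100 mM magnesium acetate, and the labels do not name the food of that group. The control group ate a diet without resistant starch. All 3 groups began 3 weeks before surgery to place a minipump and stayed on the diet to the end of the study; what the pump delivered is not stated in the labels. The labels give the high fibre libraries the numbers 6, 7, 8 and 16 (replicates 1 to 4) and the acetate libraries the numbers 11, 12 and 17 (replicates 1 to 3). Whether every library is from its own mouse is not said, and p-values therefore cover only library-to-library spread, which may be technical. The study's title asks whether either treatment changes DNA methylation in heart or spleen, and this comparison asks whether the hearts of the 2 treated groups differ from each other.

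Gut bacteria ferment resistant starch to short-chain fatty acids, of which acetate is the most abundant in the circulation. Acetate acts through G protein-coupled receptors such as FFAR2 and FFAR3 and, once linked to coenzyme A, feeds fatty acid synthesis and protein acetylation. DNA methylation in mammals sits mainly on cytosines that precede a guanine (CpG sites), is copied after replication by DNMT1 with its guide UHRF1, and is dense over repeats and gene bodies but usually absent from the CpG islands of active promoters. The assay pulls down DNA fragments with a methyl-CpG binding protein, so more reads in a window mean more captured DNA. Capture efficiency and DNA copy number enter the counts too, and no absolute methylation level follows from them. Values below are CPM, a window's count per M counts of its library after scaling with TMM factors, which place the bulk of windows at a log2 fold change near 0. The log2 difference of a window is its fitted log2 fold change of high fibre over acetate, with its standard error (SE).

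Promoter sequences of 5 genes from either side of the comparison show the CpG sites at an annotated start of each. Ehmt2 and Hcar1 were lower on high fibre, and Kcna4, Lix1 and Cd36 were higher. The sequences are RefSeq's (GRCm38.p6), 250 bases before to 50 bases after the start of transcription, with each CpG site in capitals (motif CG, which reads the same on both strands). Ehmt2 (chr17:34898224-34898523, plus strand) has 28 CpG sites, and 18.3% of 18716 promoters of this length have at least as many. Kcna4 (chr2:107290339-107290638, plus strand) has 20, reached by 35.6% of promoters, and Hcar1 (chr5:123879954-123880253, minus strand) has 8, reached by 61.3%. Lix1 (chr17:17402436-17402735, plus strand) and Cd36 (chr5:17835847-17836146, minus strand) have 3 each, reached by 81.4%. At least 1 CpG site occurs in 95.1% of promoters. The counted windows are 10 times longer than these stretches, and how they are centred is not stated. The Cd36 stretch lies inside the gene (chr5:17781690-17888959), so the counted window may be at another start. A count does not say which sites of a window were methylated.
Ehmt2: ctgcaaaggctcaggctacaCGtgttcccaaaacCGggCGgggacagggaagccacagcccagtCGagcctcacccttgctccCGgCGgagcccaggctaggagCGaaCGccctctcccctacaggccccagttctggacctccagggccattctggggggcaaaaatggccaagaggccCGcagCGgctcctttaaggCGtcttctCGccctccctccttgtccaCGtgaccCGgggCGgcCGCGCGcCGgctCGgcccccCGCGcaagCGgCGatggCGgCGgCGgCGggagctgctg
Hcar1: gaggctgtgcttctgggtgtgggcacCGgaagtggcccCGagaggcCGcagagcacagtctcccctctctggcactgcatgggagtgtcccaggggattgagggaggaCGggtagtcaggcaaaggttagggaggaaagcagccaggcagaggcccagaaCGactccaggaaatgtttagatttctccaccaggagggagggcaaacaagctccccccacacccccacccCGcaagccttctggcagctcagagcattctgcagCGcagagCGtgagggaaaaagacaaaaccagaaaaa
Kcna4: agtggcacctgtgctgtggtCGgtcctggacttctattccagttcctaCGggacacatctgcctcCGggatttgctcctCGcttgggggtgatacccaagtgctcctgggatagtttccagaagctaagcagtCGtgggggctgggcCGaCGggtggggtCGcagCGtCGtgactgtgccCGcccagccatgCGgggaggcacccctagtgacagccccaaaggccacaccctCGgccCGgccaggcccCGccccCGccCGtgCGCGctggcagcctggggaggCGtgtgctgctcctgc
Lix1: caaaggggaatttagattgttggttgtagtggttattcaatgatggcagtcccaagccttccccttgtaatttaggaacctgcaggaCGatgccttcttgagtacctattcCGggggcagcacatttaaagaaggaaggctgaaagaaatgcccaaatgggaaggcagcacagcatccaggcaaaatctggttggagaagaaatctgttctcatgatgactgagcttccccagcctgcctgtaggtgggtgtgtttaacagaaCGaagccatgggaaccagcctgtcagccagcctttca
Cd36: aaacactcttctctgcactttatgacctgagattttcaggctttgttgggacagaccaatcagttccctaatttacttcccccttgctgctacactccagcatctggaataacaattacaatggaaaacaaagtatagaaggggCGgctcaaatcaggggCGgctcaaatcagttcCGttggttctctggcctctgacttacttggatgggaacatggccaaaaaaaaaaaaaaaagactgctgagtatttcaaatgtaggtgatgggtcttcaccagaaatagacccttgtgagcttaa

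The libraries differed as wholes. Total counts were 4.12 to 5.57 M in high fibre, 4.63 to 5.90 M in acetate and 5.98 to 8.60 M in control hearts. The window with most reads in every library, Gm10800, a predicted gene that lies in satellite-like sequence, took 19.3, 17.3, 21.3 and 18.2% of counts in high fibre libraries 1 to 4, 42.4, 37.0 and 22.1% in acetate libraries 1 to 3, and 36.8 to 50.05% in control libraries. Acetate library 1 stood apart from the other 6: its median window held 26 reads against 51 to 70, and 17.1% of its windows held none, against 11.2 to 12.1%. For each named window whose call ends without that library, its value without it is given. Heart windows of 15 cardiomyocyte marker genes had summed levels of 274 to 307 CPM in high fibre and 273 to 349 CPM in acetate hearts, against 606 to 769 CPM in high fibre and 563 to 707 CPM in acetate spleens. They were lower in heart than in spleen in 10 of 15 genes, against 44.2% of all windows (median log2 ratio -0.99, all windows 0.24). These and the other marker sums below use TMM factors fitted over both tissues together.

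High fibre hearts held less captured DNA than acetate hearts at Ehmt2 and Uhrf1, genes of the methylation machinery, at Hcar1, the lactate receptor, at the calcium channel genes Cacnb1, Cacna1h and Cacna1g, and at the immune genes Ccr8, Osm, Ikzf4 and Siglec1. They held more at Kcna4, a cardiac potassium channel, at Cd36, the fatty acid transporter of heart muscle, and at Lix1, Rbm46 and Erbb4. Of these genes Uhrf1, Cacna1h, Cacna1g, Osm, Ikzf4, Siglec1 and Erbb4 no longer passed the test below when acetate library 1 was left out. By edgeR's quasi-likelihood test 462 windows were called at an adjusted p under 0.05 (1.38% of those tested), 63 higher (0.188%) and 399 lower (1.19%) on high fibre. The median log2 fold change of the called windows was 0.98 for the higher and -0.68 for the lower ones, against 0.01 over all windows. At an unadjusted p under 0.05 the test had 9105 windows, 3691 higher and 5414 lower. High fibre and acetate levels did not overlap in 7179 windows (21.4% of those tested; 10.3% with high fibre higher and 11.1% with it lower), among them all 63 called higher and 392 of the 399 called lower. The called windows lay just inside the threshold, with a smallest adjusted p of 0.0488.

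These calls depend on single libraries. Without acetate library 1 the test called 98 windows, 90 of them among the 462. It called 2951 without acetate library 2, 4536 without acetate library 3, 431 without control library 1, 4 without high fibre library 4, and 0 without any one of high fibre libraries 1, 2 and 3 or control libraries 2, 3 and 4. The split into higher and lower depends on scaling: library totals gave 1875 higher and 7 lower windows with the median of all windows at 0.45, and cyclic loess, which removes trends with abundance, gave 289 higher and 251 lower with that median at 0.00. Every one of the 462 that an alternative tested kept its direction in it, and 78 were called both without acetate library 1 and with cyclic loess (14 higher, 64 lower). The 462 were chosen from these same counts, nearly all without overlap between the diets. A kept direction is therefore no independent support.

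**Figure D1:**
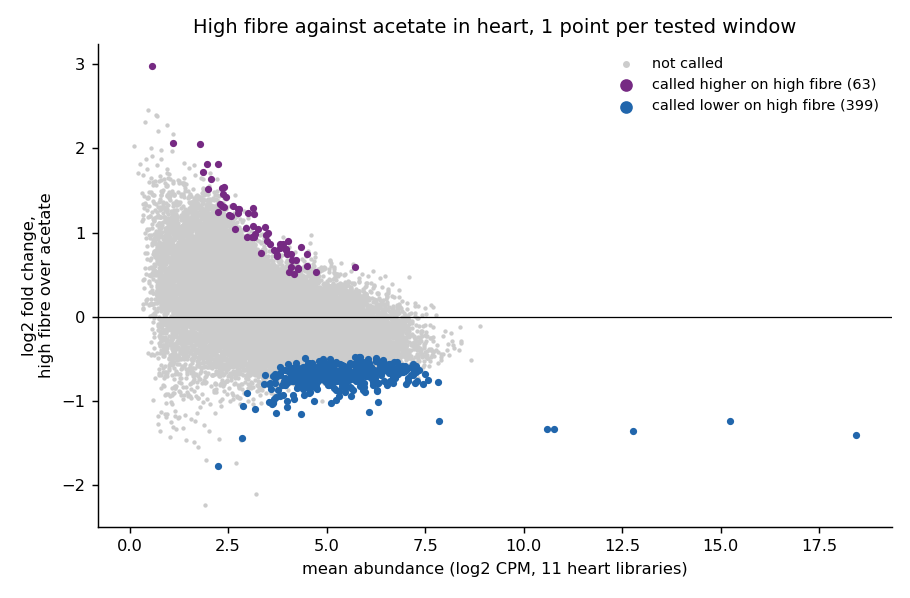
Log2 fold change of high fibre over acetate (vertical axis) against mean abundance in log2 CPM over 11 heart libraries (horizontal axis), 1 point per tested window. The 63 windows called higher lie mostly at low abundance, the 399 called lower mostly at high abundance, and the points at the far right are satellite-like windows.

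The 2 called genes of the DNA and histone methylation machinery were both lower on high fibre. Ehmt2 (ENSMUSG00000013787, chromosome 17) encodes G9a, a histone H3 methyltransferase that helps silence genes. It had 51.7, 51.1, 51.4 and 42.2 CPM in high fibre libraries 1 to 4, 131, 72.3 and 70.5 CPM in acetate libraries 1 to 3 and 86.3 to 104 CPM in control libraries. All high fibre libraries lay below all acetate libraries, acetate library 1 was far above acetate libraries 2 and 3, and these lay below all control libraries. The log2 difference was -0.88 (SE 0.16, adjusted p = 0.0488), and without acetate library 1 it was -0.54 (adjusted p = 0.00297); over all 23 alternatives the adjusted p ran from 0.00297 to 0.855. Uhrf1, which brings DNMT1 to newly copied DNA, had 62.4, 55.1, 55.2 and 58.2 CPM on high fibre and 129.7, 77.4 and 68.9 CPM on acetate, with no overlap and a log2 difference of -0.65 (SE 0.16). Its call ended without acetate library 1, at a log2 difference of -0.34 (adjusted p = 0.105). Of 38 tested genes of this list 0 were called higher and 2 lower (5.26%, against 1.38% of all tested windows), and the list's median was -0.10.

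The methyltransferases themselves did not pass. Dnmt1 had 26.8, 22.5, 31.8 and 31.7 CPM on high fibre and 44.1, 36.5 and 30.3 CPM on acetate, which overlap, with a log2 difference of -0.37 (SE 0.15, adjusted p = 0.12). Dnmt3a, which sets new methylation, had 135, 136, 132 and 118 CPM on high fibre and 203, 158 and 136 CPM on acetate, which do not overlap, with a log2 difference of -0.34 (SE 0.12, adjusted p = 0.0939). Ehmt1, the partner of Ehmt2 in one complex, had a log2 difference of -0.09 (SE 0.11, adjusted p = 0.598), and Tet2, which oxidises methylated cytosine, 0.39 (SE 0.36, adjusted p = 0.478) at 3.26 to 4.88 CPM on high fibre and 2.38 to 3.62 CPM on acetate. Ehmt2 and Ehmt1 had different fold changes in the same libraries; the difference between the 2 genes was not tested.

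Among the histone acetylation genes the 2 called were sirtuins, which remove acetyl or other acyl groups from proteins using NAD, and both were lower. Sirt2, mainly a cytoplasmic deacetylase, had 40.6, 38.2, 38.5 and 32.98 CPM on high fibre, 83.5, 47.6 and 50.4 CPM on acetate and 62.8 to 70.4 CPM on control, with a log2 difference of -0.66 (SE 0.15). Sirt4, a mitochondrial enzyme, had 30.6, 29.5, 32.5 and 26.8 CPM on high fibre, 70.9, 41.4 and 36.01 CPM on acetate and 48.5 to 59.8 CPM on control, with a log2 difference of -0.70 (SE 0.17). In both genes the high fibre libraries lay below the others, and acetate libraries 2 and 3 lay between them and the control libraries. Without acetate library 1 neither was called, Sirt2 at a log2 difference of -0.39 (adjusted p = 0.0816) and Sirt4 at a log2 difference of -0.37 (adjusted p = 0.125). The list of 30 tested genes had 0 higher, 2 lower (6.67%, against 1.38% over all) and a median of -0.23. Hdac4, a class IIa deacetylase of heart muscle, was at a log2 difference of -0.06 (SE 0.11, adjusted p = 0.762). The start of Nfkbib, an inhibitor of NF-kappa-B, lies within 3 kb of that of Sirt2, and how reads in shared sequence were counted is not stated. Its window had few reads, at 1.58 to 3.14 CPM on high fibre and 1.99 to 3.87 CPM on acetate and was not called (log2 difference -0.39, SE 0.39, adjusted p = 0.522).

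The receptors and enzymes that meet short-chain fatty acids and their relatives gave 1 call in 28 tested genes (3.57%, against 1.38% over all). Hcar1 encodes GPR81, a receptor for lactate on fat and muscle cells. It had 24.8, 23.5, 27.5 and 26.7 CPM on high fibre, 55.1, 41.4 and 34.2 CPM on acetate and 35.3 to 44.00 CPM on control. High fibre and acetate did not overlap, and the log2 difference was -0.74 (SE 0.15, adjusted p = 0.0488), or -0.55 (adjusted p = 0.0248) without acetate library 1, with an adjusted p of 0.00447 to 0.886 over the alternatives. Its neighbour in sequence, Hcar2, a receptor for butyrate, niacin and ketone bodies, had 26.2, 23.2, 29.3 and 23.8 CPM on high fibre and 47.4, 36.9 and 29.1 CPM on acetate. The highest high fibre library just overlapped the lowest acetate library, and it did not pass (log2 difference -0.53, SE 0.15, adjusted p = 0.0569).

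The acetate and propionate receptors themselves did not pass. Ffar2 had 29.7, 32.8, 33.4 and 27.2 CPM on high fibre and 52.5, 37.3 and 36.8 CPM on acetate, without overlap, at a log2 difference of -0.44 (SE 0.14, adjusted p = 0.072). Ffar3 had 20.02, 17.2, 17.1 and 19.6 CPM on high fibre and 35.2, 22.97 and 19.8 CPM on acetate, which overlap, at a log2 difference of -0.45 (SE 0.17, adjusted p = 0.113). With library totals as the scale Ffar2 and Ffar3 turned to 0.04 and 0.03. Acss2, which links acetate to coenzyme A in cytosol and nucleus, had a log2 difference of 0.08 (SE 0.16, adjusted p = 0.775), and Slc16a1, the monocarboxylate transporter MCT1, 0.41 (SE 0.25, adjusted p = 0.292). The list's median was -0.06.

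Ion channel genes were called in both directions, 1 higher and 3 lower of 46 tested (8.70%, against 1.38% over all; median 0.07). Kcna4 (chromosome 2) encodes Kv1.4, a channel of the slow transient outward potassium current that shortens the action potential. It had 11.5, 13.04, 9.85 and 12.8 CPM on high fibre, 2.09, 4.70 and 7.11 CPM on acetate and 4.11 to 6.28 CPM on control. All high fibre libraries were above all others, and acetate library 1 was lowest of all 11. The log2 difference was 1.24 (SE 0.27, adjusted p = 0.0488), and 0.97 (adjusted p = 0.0362) without acetate library 1. Cacnb1, a beta subunit that brings voltage-gated calcium channels to the membrane, had 42.8, 37.1, 40.95 and 40.7 CPM on high fibre and 98.7, 59.9 and 53.3 CPM on acetate, at a log2 difference of -0.78 (SE 0.16) and, without acetate library 1, -0.48 (adjusted p = 0.0212). The other lower windows belong to pore subunits of T-type calcium channels, which pace the sinus node: Cacna1h had 119.6, 108, 107 and 94.4 CPM on high fibre and 250.1, 142 and 131 CPM on acetate (-0.69), and Cacna1g 72.1, 75.7, 64.1 and 65.7 CPM on high fibre and 128, 89.3 and 82.7 CPM on acetate (-0.52). High fibre and acetate did not overlap in either gene, but both calls ended without acetate library 1, at a log2 difference of -0.35 (adjusted p = 0.0784) and -0.31 (adjusted p = 0.112).

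Of 29 tested genes of heart fuel metabolism 2 were called (6.90%, against 1.38% over all), Cd36 higher and Cpt1b lower. Cd36, which carries fatty acids across the cell membrane, had 19.11, 20.5, 22.5 and 27.7 CPM on high fibre, 5.36, 11.9 and 16.5 CPM on acetate and 9.13 to 14.9 CPM on control, with a log2 difference of 0.91 (SE 0.22) and 0.65 (adjusted p = 0.0448) without acetate library 1. Cpt1b, the muscle form of the enzyme that admits fatty acids to mitochondria, had 22.9, 22.1, 23.5 and 20.1 CPM on high fibre, 43.2, 30.2 and 30.3 CPM on acetate and 33.8 to 42.8 CPM on control, with a log2 difference of -0.62 (SE 0.14) and -0.45 (adjusted p = 0.0917) without acetate library 1. In Cd36 the high fibre libraries were above all others, and in Cpt1b below all others. The list's median was -0.03. Of the heart structure and remodelling lists none had a call: 32 sarcomere and Z disc genes (median -0.08), 27 cardiac transcription factors (0.02) and 38 fibrosis and matrix genes (-0.03). Tgfb1, the fibrosis cytokine, was at a log2 difference of -0.31 (SE 0.16, adjusted p = 0.222) with overlapping groups.

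In blood pressure control, 1 of 46 tested genes was called (2.17%, against 1.38% over all). Nos3, the endothelial nitric oxide synthase, had 16.02, 13.2, 16.7 and 13.2 CPM on high fibre, 31.9, 22.2 and 19.3 CPM on acetate and 19.2 to 26.5 CPM on control, with a log2 difference of -0.69 (SE 0.17). Without acetate library 1 the call ended at a log2 difference of -0.49 (adjusted p = 0.116). Scarf1, a scavenger receptor of endothelial cells, was lower too, with 10.2, 8.15, 11.6 and 8.75 CPM on high fibre and 29.2, 16.1 and 15.8 CPM on acetate (log2 difference -1.01, SE 0.19; -0.71, adjusted p = 0.0343, without acetate library 1). Both belong to the endothelial and mural markers, of which 0 were higher and 2 lower of 28 (7.14%, against 1.38% over all; median -0.13). Ren1, which encodes renin, had 23.3, 17.7, 21.3 and 17.2 CPM on high fibre and 36.4, 25.9 and 24.9 CPM on acetate, which do not overlap, and just missed the threshold at a log2 difference of -0.52 (SE 0.15, adjusted p = 0.0594). Agtr1a, the angiotensin receptor, had a log2 difference of 0.11 (SE 0.17, adjusted p = 0.694). For Nppa, the atrial natriuretic peptide, it was -0.13 (SE 0.16, adjusted p = 0.614).

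The 4 called members of 3 immune lists were lower on high fibre, while Mcpt9, a mast cell protease outside the lists and named after its value was seen, was called higher (log2 difference 0.76, or 0.66, adjusted p = 0.111, without acetate library 1). Ccr8, a chemokine receptor of regulatory and type 2 helper T cells, had 22.6, 20.1, 20.98 and 21.2 CPM on high fibre, 41.1, 31.8 and 31.99 CPM on acetate and 30.7 to 41.9 CPM on control, with a log2 difference of -0.71 (SE 0.14, adjusted p = 0.0488) and -0.59 (adjusted p = 0.0227) without acetate library 1. The high fibre libraries were close together and below every other library. Osm, the cytokine oncostatin M, had 24.2, 21.4, 21.7 and 19.5 CPM on high fibre and 47.4, 35.8 and 26.6 CPM on acetate (log2 difference -0.73, SE 0.17). Ikzf4, the transcription factor Eos of regulatory T cells, had 9.65, 8.15, 7.71 and 9.61 CPM on high fibre and 24.7, 15.4 and 12.8 CPM on acetate (log2 difference -0.94, SE 0.20), and Siglec1, the sialic acid receptor of macrophages, 22.8, 19.02, 20.98 and 26.2 CPM on high fibre and 43.5, 31.8 and 27.7 CPM on acetate (log2 difference -0.60, SE 0.15). High fibre and acetate did not overlap in these genes, and without acetate library 1 the calls of Osm, Ikzf4 and Siglec1 ended at a log2 difference of -0.52 (adjusted p = 0.0574), -0.68 (adjusted p = 0.0673) and -0.41 (adjusted p = 0.134).

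By list, 0 were higher and 1 lower of 47 chemokine and receptor genes (2.13%), 0 and 1 of 33 adaptive immune markers (3.03%) and 0 and 2 of 26 myeloid markers (7.69%), with medians of -0.05, -0.14 and -0.24, against 1.38% over all windows. A separate list of 18 tested leukocyte marker windows summed to 278 to 329 CPM in high fibre, 338 to 446 CPM in acetate and 370 to 411 CPM in control hearts. Of the 18, 0 were called, and their median was -0.32. The 10 endothelial marker windows summed to 210.2 to 226 CPM in high fibre and 240.1 to 283 CPM in acetate hearts (median -0.16), and the 8 fibroblast marker windows to 163 to 181 CPM in high fibre and 139 to 162 CPM in acetate hearts (median 0.22). High fibre was below acetate for leukocyte and endothelial sums and above it for fibroblast sums, with no overlap between the groups. The other marker sums overlapped. The 8 smooth muscle and pericyte windows summed to 60.9 to 69.1 CPM in high fibre and 61.35 to 68.9 CPM in acetate hearts (median -0.01). The 6 erythroid windows summed to 40.25 to 49.1 CPM and 45.9 to 58.04 CPM (median -0.14 over the 5 tested in heart). The cardiomyocyte sums given above overlapped too. In all these sets 0 windows were called. Of single tested windows, 21.4% did not overlap. In bulk tissue a changed share of a cell type and changed captured DNA per cell cannot be told apart. Captured DNA at a marker window is a methylation readout, not expression, so a lower sum does not mean fewer cells of that type. The part of cell makeup in these results was not tested.

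Timeless, a replication fork protein related to the fly clock gene of that name, was the 1 called of 21 tested clock genes. It had 68.99, 74.4, 71.9 and 64.96 CPM on high fibre, 180.3, 93.7 and 88.2 CPM on acetate and 94.4 to 122 CPM on control, with a log2 difference of -0.77 (SE 0.17) and -0.38 (adjusted p = 0.0565) without acetate library 1. Germline genes, which are silenced by promoter methylation outside egg and sperm, had 1 higher and 1 lower of 46 tested (4.35%) and the lowest median of the 19 lists, -0.35. At an unadjusted p under 0.05, 25 of 46 were lower, against 5414 of 33562 over all windows. The list's median abundance, 4.80 log2 CPM, falls in the ninth of 10 abundance bins. In that bin 1398 of 3356 windows were lower at that p, and the median was -0.25. Rbm46, an RNA binding protein of meiosis, was higher with 13.3, 13.8, 8.56 and 14.3 CPM on high fibre and 2.38, 5.97 and 6.65 CPM on acetate (log2 difference 1.22, SE 0.26), and Tex101, a surface protein of sperm precursors, lower with 20.02, 22.1, 23.5 and 20.8 CPM on high fibre and 39.9, 29.7 and 29.7 CPM on acetate (log2 difference -0.59, SE 0.13; -0.45, adjusted p = 0.0877, without acetate library 1). The enrichment measure given further on includes these germline windows. Of 31 imprinted, 23 housekeeping and 23 immediate early genes 0 were called, with medians of -0.09, 0.02 and -0.16. Egr1, an immediate early transcription factor, was at a log2 difference of -0.50 (SE 0.15, adjusted p = 0.0642). Hox cluster genes, which pattern the body axis, had 0 calls in 27 and the highest median of the lists, 0.49, at low abundance. Over all 19 lists 20 of 616 tested genes were called (3.25%), 3 higher and 17 lower, against 1.38% of all windows (0.188% higher and 1.19% lower). In the seventh to ninth of 10 abundance bins, where most of the lists have their median, 1.13 to 3.25% of windows were called. With cyclic loess the calls of Uhrf1, Sirt4, Cacna1g, Cpt1b, Nos3, Siglec1 and Tex101 ended, at adjusted p of 0.0557 to 0.119.

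**Figure D2:**
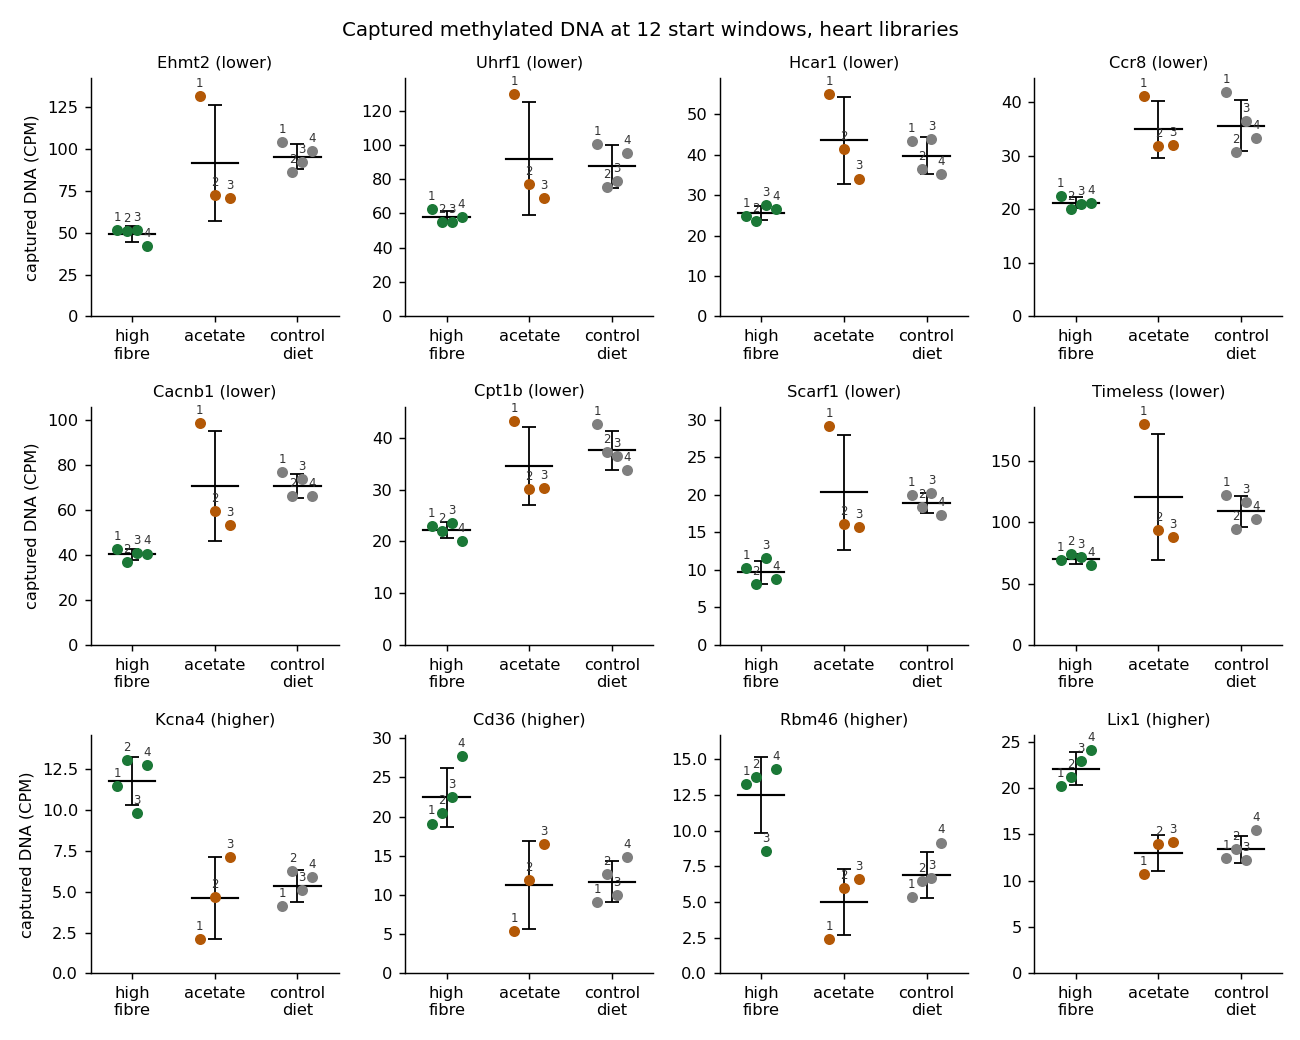
CPM at 12 called windows in the 11 heart libraries (vertical axes start at 0), 1 point per library with its replicate number; bars give the mean and SD of 4 high fibre, 3 acetate and 4 control libraries. In the 8 lower windows acetate library 1 is the highest acetate library, and in the 4 higher windows the lowest; in each of the 12 the high fibre libraries lie on 1 side of all acetate libraries.

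Among the 15 higher windows with the smallest p were genes of signalling and the cytoskeleton as well as odorant and pheromone receptors. Lix1, known in chick as a regulator of gut muscle precursors, had 20.2, 21.2, 22.97 and 24.1 CPM on high fibre, 10.7, 13.9 and 14.2 CPM on acetate and 12.2 to 15.5 CPM on control, with a log2 difference of 0.75 (SE 0.14). Erbb4, the neuregulin receptor of heart muscle cells, had 14.2, 17.4, 15.4 and 18.1 CPM on high fibre and 2.98, 9.04 and 10.7 CPM on acetate (log2 difference 1.00, SE 0.23), and lost its call without acetate library 1 (0.72, adjusted p = 0.0545). Gmds, an enzyme of GDP-fucose synthesis, had 29.1, 25.2, 26.1 and 30.5 CPM on high fibre and 7.45, 17.2 and 19.9 CPM on acetate (log2 difference 0.83, SE 0.19), and Capza2, which caps actin filaments, 15.8, 19.2, 21.1 and 27.1 CPM on high fibre and 7.15, 12.1 and 13.8 CPM on acetate (log2 difference 0.87, SE 0.20). In these genes acetate library 1 was the lowest of all heart libraries, and high fibre library 4 was the highest.

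The others of the 15 had log2 fold changes from 0.73 to 2.06. They were the protease inhibitor Serpinb2 (0.86), the dopamine sulfotransferase Sult1d1 (1.06), the regulator of G protein signalling Rgs13 (0.73), the synaptic release protein Rims2 (1.31), the zinc finger protein Zkscan3 (1.04), the adhesion family member Ceacam11 (2.06), the pheromone receptor Vmn2r29 (1.82), the odorant receptors Olfr701 (1.64) and Olfr619 (1.05), and Kcna4 and Rbm46 from above. Ceacam11 and Vmn2r29 rest on few reads, 0.596 to 1.39 CPM and 0.298 to 2.47 CPM on acetate, against 3.64 to 6.45 CPM and 4.73 to 6.88 CPM on high fibre. Without acetate library 1 the calls of Serpinb2 (0.65, adjusted p = 0.0553), Zkscan3 (0.79, adjusted p = 0.0589), Rims2 (1.17, adjusted p = 0.059) and Rgs13 (0.64, adjusted p = 0.0673) ended, and with cyclic loess those of Rims2 and Olfr619. Of the 15, 10 were also called without acetate library 1, 13 with cyclic loess and 9 under both.

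The 15 lower windows with the smallest p were all also called without acetate library 1 and with cyclic loess. Kat2b-ps, a pseudogene of an acetyltransferase, had the smallest p among these 15, and its 3 acetate libraries were close together, with 13.7, 12.3, 12.6 and 12.2 CPM on high fibre, 22.7, 21.3 and 21.02 CPM on acetate and 17.5 to 22.9 CPM on control (log2 difference -0.77, SE 0.13; -0.74, adjusted p = 0.00953, without acetate library 1). Reads of a pseudogene can be shared with its parent gene. Hps6, needed for the making of lysosome-related organelles, had 24.2, 21.01, 20.8 and 21.2 CPM on high fibre and 46.8, 31.6 and 32.1 CPM on acetate (log2 difference -0.74, SE 0.14). Celsr1, a cadherin of planar cell polarity, had 26.6, 23.5, 26.8 and 17.9 CPM on high fibre and 71.2, 39.1 and 34.6 CPM on acetate (log2 difference -0.99, SE 0.19; -0.64, adjusted p = 0.0102, without acetate library 1). Nlgn2, a synaptic adhesion protein, had a log2 difference of -0.76 (SE 0.15), Wdr24 of the amino acid sensing GATOR2 complex -0.72 (SE 0.14), Tnrc18 -0.75 (SE 0.14), Fam189b -0.82 (SE 0.16) and Ccnd3-ps, a cyclin D3 pseudogene, -1.15 (SE 0.23), which was -0.76 (adjusted p = 0.048) without acetate library 1. With cyclic loess Nlgn2 was at -0.50 and Tnrc18 at -0.50, and both were called.

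Rab2b, a small GTPase of vesicle traffic, had 18.7, 18.3, 20.7 and 18.1 CPM on high fibre and 36.4, 26.4 and 29.2 CPM on acetate (log2 difference -0.67, SE 0.13). Tox4, whose start lies within 3 kb of that of Rab2b, had 14.2, 16.8, 15.7 and 12.9 CPM on high fibre and 14.3, 16.1 and 18.7 CPM on acetate, which overlap, and was not called (log2 difference -0.16, SE 0.14, adjusted p = 0.461). How reads in sequence common to both windows were counted is not stated.

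Families of related genes leaned to one side or the other. With library totals the median of all windows was 0.45, against 0.01 with TMM, so a family's median below 0 is relative to the bulk of windows. Olfactory receptor windows had 8 higher and 1 lower of 1223 (0.736%, median 0.53 at a median abundance of 2.68 log2 CPM), vomeronasal receptors 2 and 0 of 445 (0.449%, median 0.62) and immunoglobulin segments 0 and 0 of 218 (median 0.63). Their shares called in both directions lie below the 1.38% of all windows, but most of those were lower calls (1.19%). Higher calls alone were 8 of 1223, 2 of 445 and 0 of 218, against 0.188% of all windows. At an unadjusted edgeR p under 0.05, 400, 146 and 69 were higher, against 3691 of 33562 over all. The abundance bins of 1.89 to 2.462 and 2.462 to 2.912 log2 CPM hold these families' median abundances. In these bins 12 and 7 of 3356 windows were called higher, and 787 and 702 were higher at that p. Solute carriers had 1 higher and 11 lower of 353 (3.40%, median -0.11), with Slc40a1, the iron exporter ferroportin, the 1 higher at 0.59; it was named after its value was seen, and its call ended without acetate library 1, at a log2 difference of 0.49 (adjusted p = 0.112). Keratins and keratin-associated proteins had 0 higher and 3 lower of 107 (2.80%): Krt35, Krt17 and Krt15, at -0.60, -0.74 and -0.55, named after their values were seen. The 3 keratin calls ended without acetate library 1, at a log2 difference of -0.47 (adjusted p = 0.0565) for Krt35, -0.49 (adjusted p = 0.101) for Krt17 and -0.37 (adjusted p = 0.125) for Krt15. Zfp zinc finger genes had 0 and 4 of 344 (1.16%), and ribosomal protein pseudogenes 0 and 6 of 210 (2.86%).

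MicroRNA windows had the largest share called of the 21 families counted, with 1 higher and 22 lower of 599 (3.84%, against 1.38% over all; median -0.12). Of the 23, 22 have a RefSeq hairpin, 18 lie inside a protein-coding gene and 0 within 3 kb of another called start. Only the 274 of 462 called windows with a known start could be searched. The share inside genes was not counted over all microRNA windows. The 1 higher was Mir30a, a microRNA abundant in heart muscle, and among the lower were Mir199a-1, of a family that can drive heart muscle cells to divide, and Mir182. These 3 were picked for display after their values were seen. Mir30a had 7.83, 9.06, 11.3 and 12.8 CPM on high fibre, 1.79, 5.24 and 4.95 CPM on acetate and 2.44 to 5.78 CPM on control (log2 difference 1.28, SE 0.32). Mir199a-1, inside the dynamin gene Dnm2, had 12.2, 11.6, 12.1 and 8.89 CPM on high fibre and 26.8, 16.6 and 16.1 CPM on acetate (log2 difference -0.78, SE 0.17), and Mir182 16.4, 13.8, 15.6 and 11.5 CPM on high fibre and 30.7, 19.5 and 20.2 CPM on acetate (log2 difference -0.68, SE 0.17). High fibre and acetate did not overlap in the 3, and without acetate library 1 their log2 differences were 1.02 (adjusted p = 0.0561) for Mir30a, -0.55 (adjusted p = 0.103) for Mir199a-1 and -0.48 (adjusted p = 0.122) for Mir182, past the threshold in none. With cyclic loess Mir30a and Mir182 were not called (adjusted p = 0.0574 and 0.0514). Their mature sequences in RefSeq (GRCm38.p6) are given with the seed, bases 2 to 8, in capitals. The 3 have different seeds, and these reads are of DNA near the hairpin, not of the microRNA.
mmu-miR-30a-5p: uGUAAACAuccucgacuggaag
mmu-miR-199a-5p: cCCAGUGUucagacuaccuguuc
mmu-miR-182-5p: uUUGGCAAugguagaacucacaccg

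The 7 satellite-like windows held less on high fibre, with acetate library 3 close to the high fibre libraries and, in Gm10721, within their range. Gm11168 had 796, 699.8, 871 and 717 CPM on high fibre, 2909, 2010.0 and 926 CPM on acetate and 2066 to 3364 CPM on control (log2 difference -1.34, SE 0.24). Gm10800 had -1.40, Gm10801 -1.24, Gm21738 -1.35, Gm10717 -1.33, Gm10722 -1.23 and Gm10721 -1.13. They were named after their values were seen, and near-identical repeats can share reads, so the 7 are not independent. Without acetate library 1 they stayed called, at -0.98 in Gm10800 to -0.75 in Gm10721. With cyclic loess the calls of Gm10800 (-0.31, adjusted p = 0.32) and Gm10801 (-0.49, adjusted p = 0.0841) ended, and Gm21738 was at -0.81.

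The direction of a window moved with its abundance, and windows with the fewest promoter CpG sites leaned higher. The 10% of windows with the lowest abundance had a median log2 fold change of 0.47, with 4 called higher and 0 lower of 3357, and the 10% with the highest -0.26, with 1 higher and 182 lower of 3357. Over 10 equal bins the medians crossed 0 between the fifth (0.08) and the sixth (-0.01). Windows whose 300-base promoter had 0 to 2 CpG sites had a median of 0.32, those with 6 to 10 sites -0.13 and those with 36 to 65 sites -0.03. The windows with 0 to 2 sites were also of low abundance. Their median was 2.93 log2 CPM, against 3.89 to 4.36 in the other CpG bins. CpG content and abundance were not separated. Promoters of windows called higher had a median of 3 CpG sites and 43.3% G+C (36 of 63 matched), those called lower 15 sites and 59.9% G+C (238 of 399 matched) and all tested 12 sites and 56.0% G+C. By chromosome, the share called was highest on 11 (3 higher, 61 lower of 2080, 3.08%) and lowest among the autosomes on 16 (1 and 1 of 830, 0.241%), and X had 0 higher and 2 lower of 1613 (0.124%).

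**Figure D3:**
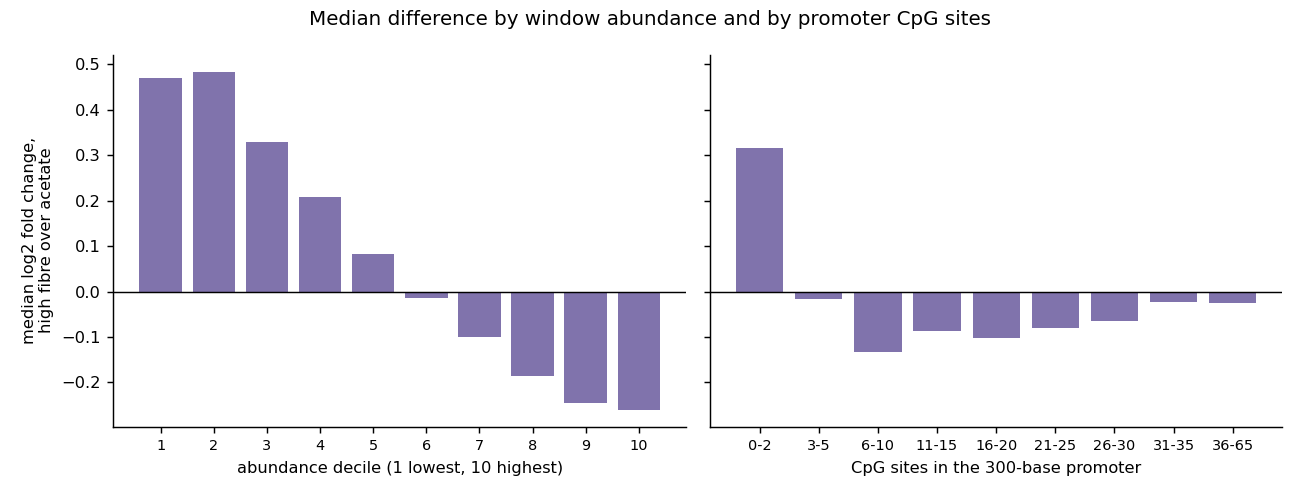
Median log2 fold change of high fibre over acetate (vertical axis) in 10 equal bins of window abundance (left, 3356 or 3357 windows each) and in 9 bins of CpG sites in the 300-base promoter (right, 886 to 3161 windows each). The medians run from 0.47 in the lowest to -0.26 in the highest abundance bin, and only promoters with 0 to 2 CpG sites have a median above 0.

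Of 8 measures of whole libraries, 4 did not overlap between high fibre and acetate: the 3 given here and the share of the top 1% of windows. The enrichment measure, mean log2 CPM of 77 imprinted and germline windows minus that of 23 housekeeping windows, was 0.63, 0.62, 0.65 and 0.72 in high fibre libraries 1 to 4 and 1.04, 0.73 and 0.77 in acetate libraries 1 to 3 (difference -0.19, two-sided exact permutation p = 0.0571). The share of the largest window was 19.05% ± 1.70 on high fibre (SD, n = 4) and 33.8% ± 10.5 on acetate (SD, n = 3), a difference of -14.8 points (exact permutation p = 0.0571). CpG-rich windows exceeded CpG-poor windows by 1.34, 1.32, 1.25 and 1.09 log2 CPM on high fibre and by 2.57, 1.56 and 1.503 on acetate (exact permutation p = 0.0571). In each of these 3 measures high fibre lay wholly below acetate, by little in the enrichment measure (0.722 in high fibre library 4 and 0.726 in acetate library 2) and in the largest window (21.3% in high fibre library 3 and 22.1% in acetate library 3). The other 4 measures overlapped: total counts, the median count, the share of windows without reads, and the enrichment measure taken with medians, which was at most 0.865 on high fibre and at least 0.823 on acetate (exact permutation p = 0.171). With 4 against 3 libraries the test has 35 assignments and cannot go below 0.0571, and over 8 such tests the adjusted p was 0.114. With the enrichment measure as a covariate edgeR called 0 windows, with 1891 at an unadjusted p under 0.05. The 462 windows all kept their direction, with medians of 0.73 in the 63 higher and -0.37 in the 399 lower. The measure nearly splits the diets and is made from tested windows, so in this fit it cannot be told apart from diet, and the part of capture in the results was not tested otherwise.

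Set against the mean of the control libraries, the 399 lower windows had median log2 ratios of -0.56, -0.66, -0.65 and -0.77 in high fibre libraries 1 to 4 and of 0.47, -0.19 and -0.29 in acetate libraries 1 to 3. The 63 higher windows had 0.73, 0.85, 0.76 and 1.03 in the high fibre libraries and -0.74, 0.03 and 0.11 in the acetate libraries. Acetate library 1 lay on the far side of the control level in both sets, and acetate libraries 2 and 3 lay between it and high fibre. Both sets were chosen for their difference between high fibre and acetate in these same libraries, so a gap between the 2 diets follows from that choice.

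**Figure D4:**
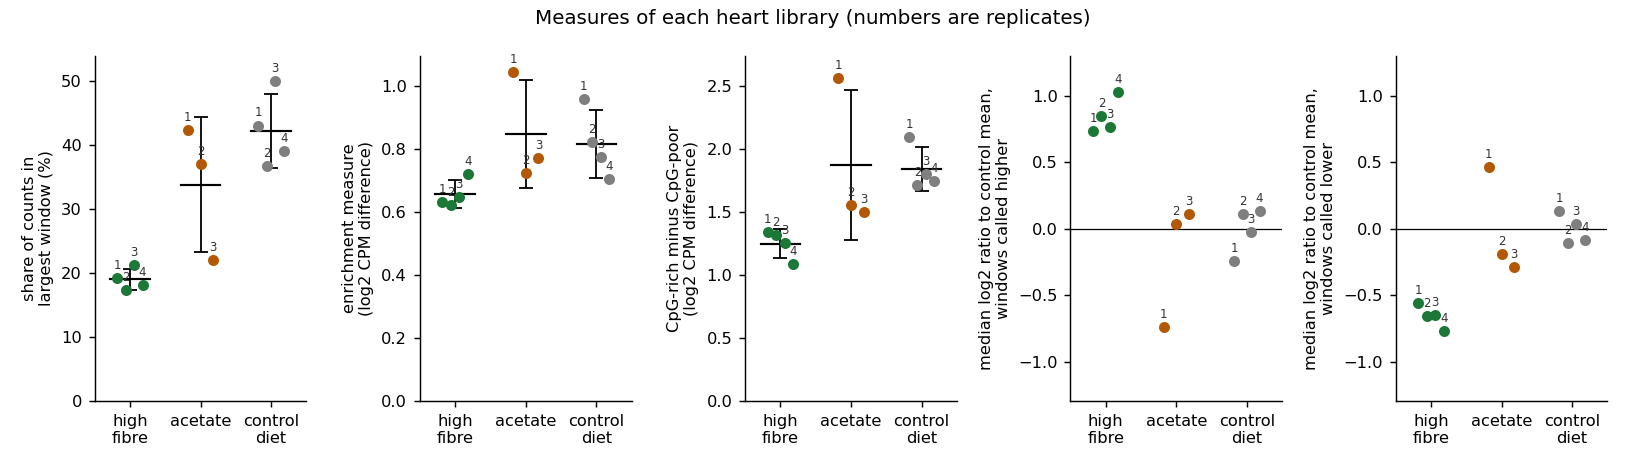
Measures of the 11 heart libraries, 1 point per library with its replicate number; the first 3 panels (share of the largest window in %, enrichment measure and CpG-rich minus CpG-poor windows in log2 CPM) carry the mean and SD of 4 high fibre, 3 acetate and 4 control libraries. The last 2 panels give the median log2 ratio to the control mean over the 63 higher and 399 lower windows, where acetate library 1 is at -0.74 and 0.47. These windows were chosen for their difference between high fibre and acetate in the same libraries.

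Libraries of the same diet also differed from each other at single loci, and heart and spleen libraries of the same label number did so together. A run of 9 neighbouring windows of T cell receptor alpha variable segments (Trav8d-2, Trav16d-dv11, Trav13d-4, Trav14d-3-dv8, Trav7n-4, Trav9n-1, Trav6n-5, Trav10n and Trav6n-6) together held 8, 2, 2 and 436 reads in high fibre heart libraries 1 to 4, 118, 291 and 356 reads in acetate libraries 1 to 3, and 287, 307, 1 and 249 reads in control libraries 1 to 4. The windows on either side, Trav8d-1 and Trav13n-4, held 52, 53, 102 and 85 and 47, 36, 65 and 55 reads in the high fibre libraries. In spleen the libraries of the same numbers were the ones without reads: high fibre libraries 1 to 4 held 0, 0, 0 and 67 reads in the 9 windows, acetate libraries 51 to 87, and control libraries 1 to 4 held 48, 93, 0 and 56. A count of 0 allows up to 3 reads, a limit that covers counting error only.

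Tbc1d2b, a regulator of Rab GTPases, split the libraries otherwise. It had 74.8, 76.8, 76.9 and 40.1 CPM in high fibre hearts, 58.4, 39.96 and 47.0 CPM in acetate hearts and 62.4 to 86.9 CPM in control hearts, and in spleen 47.4, 50.97, 37.8 and 22.2 CPM on high fibre, 16.4 to 25.6 CPM on acetate and 39.9 to 46.2 CPM on control. High fibre library 4, number 16 in the labels, lay with the acetate libraries (numbers 11, 12 and 17) in both tissues, and not with high fibre libraries 1 to 3. Gm22866 did the same, with 26.4, 30.1, 29.7 and 10.9 CPM in high fibre hearts, 14.9, 13.9 and 11.1 CPM in acetate hearts and 25.4 to 31.8 CPM in control hearts. Without high fibre library 4 the heart comparison called 4 windows, and they were Gm22866, higher (1.13), and Trav6n-6, Trav13d-4 and Trav9n-1, lower. The labels do not say what the numbers stand for, diet and number cannot be told apart for acetate, and no cause of these splits was tested. All windows of these 2 paragraphs were named after their values were seen.

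**Figure D5:**
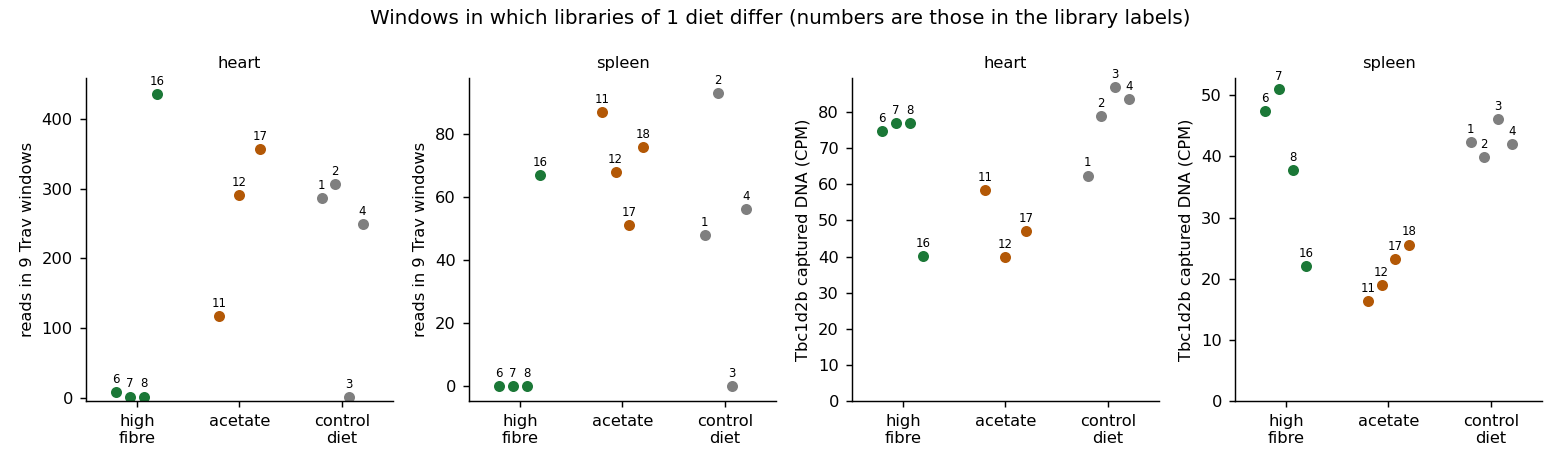
Reads summed over 9 Trav windows and Tbc1d2b CPM in heart and spleen (vertical axes), 1 point per library with the number from its label. The libraries numbered 6, 7, 8 and 3 hold 0 to 8 Trav reads in both tissues, and library 16 of high fibre lies with the acetate libraries at Tbc1d2b.

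The heart comparison was also set against the same diets in spleen. In spleen edgeR called 0 of 24871 windows for high fibre against acetate (smallest adjusted p 0.501, 823 at an unadjusted p under 0.05). Of the 399 windows lower in heart 398 were tested in spleen, where 148 were lower, with a median of 0.03, and 50.7% of all spleen windows were lower. Of the 63 higher in heart 29 were tested in spleen, where 8 were higher, with a median of -0.34. Ehmt2 had 0.08 in spleen, Hcar1 0.03 and Cd36 -0.41. A test of the difference between the tissues over all 23 libraries, without regard to label numbers, called 1 of 33982 windows, with 6752 at an unadjusted p under 0.05, and 0 of the 60 named windows passed. Ehmt2 differed by -0.99 (SE 0.28, adjusted p = 0.119) and Cd36 by 1.31 (SE 0.43, adjusted p = 0.144). With the label number as a block, which treats heart and spleen libraries of the same number as a pair, 3808 windows were called, 37 of the 60 named among them. Ehmt2 then differed by -1.10 (SE 0.19, adjusted p = 0.00127) and Cd36 by 1.48 (SE 0.41, adjusted p = 0.0158). The labels do not say that a number marks a mouse. Without the block, library totals called 3442 windows, and leaving out acetate heart library 3 gave 189. The count for the tissue difference thus rests on the pairing, on the scaling and on single libraries.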

How the data were processed

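Genomic DNA of left ventricle and spleen was enriched for methylated CpG sites with a methyl-CpG binding protein kit (MethylMiner) and sequenced, per the labels' protocols. The deposited values are raw read counts per 3 kb gene start window, 1 column per library, made by the authors without normalization; the submitters' processing notes list featureCounts 1.5.1, BWA 0.7.10, edgeR 3.16.5, bcl2fastq 2.19.1.403 and build GRCm38, without roles. How windows are centred, and how duplicate, multiply aligned or shared reads were counted, is not given in the sources used here. No unenriched input was used.

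From these counts the quasi-likelihood test of edgeR 4.0.16 (R 4.3.3) was run on 11 heart libraries with TMM factors, filterByExpr at a minimum count of 10, 1 mean per diet, and Benjamini-Hochberg adjustment over all 33562 tested windows at 5%. Fold changes are high fibre over acetate with a prior count of 0.125. CPM use TMM-scaled totals. SE is the fold change over the root of F. The fit was also run on simulated counts with the same spread in every window. Apart from windows changed on purpose, the simulated libraries shared the same makeup. That run therefore says nothing about the differences in makeup between the real libraries. Whole-library measures were compared by two-sided exact permutation. Totals of 4.12 to 8.60 M counts and a median of 26 to 70 reads per window set the precision. Windows were matched to RefSeq (GRCm38.p6) by symbol or synonym for 77.2%, and 45.2% had a promoter sequence.

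Named windows are the 15 of smallest p in each direction (predicted genes, RIKEN cDNAs, microRNAs, clone names, duplicated symbols and ribosomal pseudogenes skipped), every called member of 19 lists (666 genes, 664 found, 616 tested), 18 fixed genes, and neighbours with starts within 3 kb. Members and lists were chosen with earlier results of these data known. Alternatives used DESeq2 1.42.0, limma 3.58.1 (voom, cyclic loess), sva 3.50.0, other filters and scalings, a replicate block and leaving out libraries. 1 named window is not reported here.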

Additional observations from a re-analysis of the deposited data

Results flagged for a closer look

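Within groups of 4 libraries, single values lay far from the other 3 by Dixon's criterion in 7 of 134 groups checked, about the 1 in 20 that chance gives. In high fibre library 4 Ehmt2 was at 42.2 CPM, against 51.1 to 51.7 CPM in the other high fibre libraries, Rgs13 at 21.8 CPM, against 16.2 to 16.8, and Acss2 at 14.2 CPM, against 11.3 to 11.6. In high fibre library 1 Hps6 was at 24.2 CPM, against 20.8 to 21.2. In control library 1 Rab2b was at 32.6 CPM, against 29.3 to 29.8, and its neighbour Tox4 at 15.8 CPM, below the other 3. In control library 2 Ehmt1 was at 129 CPM, against 118.9 to 119.4 in the other 3.

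Wnk1, a kinase that controls sodium chloride transport, differed between heart and spleen in its contrast of high fibre with acetate by 1.18 on the log2 scale (SE 0.20, edgeR adjusted p = 0.0408), the 1 window of 33982 to pass. In heart it had 103, 109.9, 111 and 122 CPM on high fibre, 59.9, 94.4 and 83.5 CPM on acetate and 65.4 to 76.2 CPM on control, without overlap between high fibre and acetate, and a log2 difference of 0.48 (SE 0.13, adjusted p = 0.0508), just outside the threshold. In spleen the log2 fold change was -0.72. Leaving out any one of the 4 high fibre heart libraries or acetate heart library 1 left 0 windows past the threshold for this difference.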

How the results depend on the processing

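The count of 462 windows in heart moved with most settings. It was 0 with DESeq2 size factors (9116 at an unadjusted p under 0.05), with limma voom (8920), with only the 7 libraries (7549) and with the enrichment measure as a covariate (1891), and 20 with 1 surrogate variable. It was 540 with cyclic loess, 851 with at least 50 reads on average, 1266 with no filter, 1575 with the DESeq2 test, 1882 with library totals and 1613 without the libraries numbered 16 and 17. Leaving out 1 library gave 0 to 4536. Cyclic loess without acetate library 1, added after that library was seen to stand apart, gave 120. For the tissue difference, 1 window in the main test, totals gave 3442 and leaving out 1 heart library 0 to 189. The differences of -14.8 points in the largest window's share and -0.19 in the enrichment measure kept their sign, at -20.7 to -10.5 and -0.25 to -0.09 without 1 library and at -15.8 with the top 1% of windows and -0.12 with medians.

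With a replicate block the heart count was 2284, and with label numbers as a block the tissue count was 3808. The labels do not say that a number marks a shared mouse. Deviations of high fibre and acetate hearts of the same replicate number correlated at 0.28, -0.08 and -0.03. So few values do not settle what such libraries share beyond the number. Between heart and spleen 4 of 11 label numbers exceeded 0.1, short of every pair, although same-numbered libraries were alike at the Trav windows and Tbc1d2b; whether they come from the same mouse was not settled.

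Named windows that turned round were not called in the main test. With library totals, which moved the median of all windows to 0.45, these were Ffar2 (0.0383), Ffar3 (0.0347), Ehmt1 (0.37), Dnmt1 (0.11), Dnmt3a (0.15), Hdac4 (0.40), Nppa (0.31), Tgfb1 (0.18), Tox4 (0.27) and Nfkbib (0.0347). With cyclic loess they were Ehmt1 (0.18), Tet2 (-0.0599) and Hdac4 (0.20), with at least 50 reads Ehmt1 (0.038) and Hdac4 (0.0723), and with 1 surrogate variable Slc16a1 (-0.0277), Acss2 (-0.0936), Tet2 (-0.0098) and Hdac4 (0.0323). Hdac4 was 0.0621 with the enrichment covariate and ran from -0.1304 to 0.0233 without 1 library, the upper end without acetate library 1; Acss2 ran from -0.0119 to 0.2137, below 0 without acetate library 1 or high fibre library 4. Nppa was 0.0193 and Tox4 0.0232 without the libraries numbered 16 and 17. Of the 43 named windows called, 26 were called without acetate library 1 and 34 with cyclic loess. The causes were not tested. Depth limits windows of few reads: the 15 higher windows include some under 3 CPM on acetate.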

Other observations

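The called windows differ in how many of 23 alternatives called them, from 5 to 12 with a median of 8. Among the higher windows outside the naming rule, Mdga2, an adhesion protein that limits synapse formation, had 65.3, 72.8, 63.9 and 74.9 CPM on high fibre, 33.4, 48.1 and 54.2 CPM on acetate and 36.9 to 46.4 CPM on control (log2 difference 0.59, SE 0.14; 0.43, adjusted p = 0.0448, without acetate library 1). It was the most abundant window called higher. Every high fibre library lay above every other heart library. This window was picked after its values were seen.

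Among the lower windows outside the naming rule were several of lipid and acetate-linked metabolism, also picked after their values were seen. Fasn, the fatty acid synthase, had 70.1, 62.5, 74.1 and 56.5 CPM on high fibre, 179.7, 86.4 and 84.7 CPM on acetate and 88.1 to 119.6 CPM on control (log2 difference -0.81, SE 0.19; -0.38, adjusted p = 0.0673, without acetate library 1). Slc25a10, the mitochondrial dicarboxylate carrier, had 23.8, 27.9, 23.97 and 22.8 CPM on high fibre and 61.4, 35.6 and 31.1 CPM on acetate (log2 difference -0.76, SE 0.17; -0.44, adjusted p = 0.0886, without acetate library 1), and Aacs, which activates acetoacetate for lipid synthesis, 59.3, 59.2, 60.4 and 51.5 CPM on high fibre and 119.8, 74.5 and 75.4 CPM on acetate (log2 difference -0.63, SE 0.14; -0.38, adjusted p = 0.0553, without acetate library 1). Such a choice of genes by name and value supports nothing about the pathway.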
